A study of Mus musculus with 30 samples.

Results

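Tumours of B16F1 and B16F10, 2 sublines of the B16 mouse melanoma, were compared by RNA sequencing. The comparison took all 6 libraries of these sublines, 3 of each, out of 30 libraries of 10 tumour lines. A gene entered the test when it reached 1 TPM (a relative level corrected for transcript length) in 3 or more of the 6 libraries, and 13478 of 55291 gene symbols did so. B16F1 is an early subline of the melanoma, and B16F10 was derived from the same tumour by repeated selection for cells that colonise the lung. Both were grown under the skin of mice, and the tumours were minced and digested to single cells before total RNA was extracted and stranded mRNA libraries were made. The labels call every library CD45+ tumor-infiltrating immune cells. They mention BALB/cJ and C57BL/6J hosts, and tumours with and without OK-432, a killed streptococcal preparation, but tie neither to a library. Both groups are therefore given by subline and replicate number alone, and whether host or treatment differed between them was not tested. Each group is 1 established line, and no label says that its 3 replicates came from separate mice. The p-values measure the spread between these samples, which may be technical.

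Pigment cells descend from the neural crest, an embryonic population that also yields Schwann cells and the cartilage of the face. They make melanin inside melanosomes, organelles related to lysosomes. Tyrosinase (Tyr) oxidises tyrosine, Tyrp1 and Dct act on later intermediates of dark melanin, Pmel builds the fibrils on which pigment is deposited, and the transporters Oca2, Slc45a2 and Slc24a5 set the conditions within the organelle. The transcription factors Mitf and Sox10 are known to switch on many of these genes.

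The libraries were first checked against their label. Ptprc, which encodes CD45, stood at 6.06, 17.3 and 6.92 TPM in B16F1 replicates 1 to 3 and at 2.7005, 5.11 and 8.35 TPM in B16F10 replicates 1 to 3, against line means of 22.4 to 154 TPM in the 8 other lines. Dct stood at 4505, 967 and 3476 TPM and 4672, 2923 and 3228 TPM in the same libraries and at no more than 0.0793 TPM in any other line's mean. All 10 genes of the pan-leukocyte list had a lower mean in B16F1 than in each of the 8 other lines, and in B16F10 9 of 10 did. By limma these were also called lower than the other lines, for B16F1 beside 13.8% of all genes lower and 11.2% higher (25% in all), and for B16F10 beside 24.1% lower and 7.6% higher (31.7%). Both of these contrasts share the 8 other lines. The markers therefore went against the CD45+ label in these 6 libraries, which are called tumour libraries here.

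Read counts cannot be had from TPM, which leaves depth unknown and counting error without an interval. The 6 libraries had 12065 to 14122 genes at or above 1 TPM, with every B16F1 library above every B16F10 library. Across genes, which are not independent replicates, the B16F10 libraries correlated at r = 0.975 to 0.989, the B16F1 libraries at 0.923 to 0.947, and libraries of different sublines at 0.819 to 0.866. Mitochondrial transcripts took 12.1, 39.0 and 18.6% of TPM in B16F1 replicates 1 to 3 and 24.4, 30.8 and 28.6% in B16F10 replicates 1 to 3. Haemoglobin transcripts took 0.0222, 0.391 and 0.0375% and 1.38, 7.70 and 3.55%. B16F1 replicate 2 had the largest mitochondrial share, and all 3 B16F10 libraries had more haemoglobin than any B16F1 library.

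Of the 13478 genes, 3520 (26.1%) were called at a limma adjusted p under 0.05 and a log2 fold change of at least 1, measured on log2(TPM + 1). In B16F10 780 genes (5.79%) rose and 2740 (20.3%) fell, and TPM ranges of the sublines did not overlap for 5253 genes (39%), with B16F10 above for 1262 (9.36%) and below for 3991 (29.6%). The median log2 fold change over all genes was -0.31. When each library was instead scaled by the median ratio of its genes, which moved that median by 0.249, 1069 genes were higher and 1849 lower, so that higher calls made up 36.6% of all calls in place of 22.2%. Without B16F1 replicate 1 the split was 1061 higher and 2184 lower. Shares of calls in a gene group are to be read against these backgrounds, and small decreases against the shift of the whole. The members of these groups were chosen with earlier results of these data known. Such shares therefore describe the lists and are not independent support. Of the 13478 genes, 943 passed the filter through the B16F1 libraries alone and 256 through the B16F10 libraries alone. Genes of this kind could be called in 1 direction only. In these bulk samples, fewer cells of a type and less RNA per cell cannot be told apart.

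**Figure D1:**
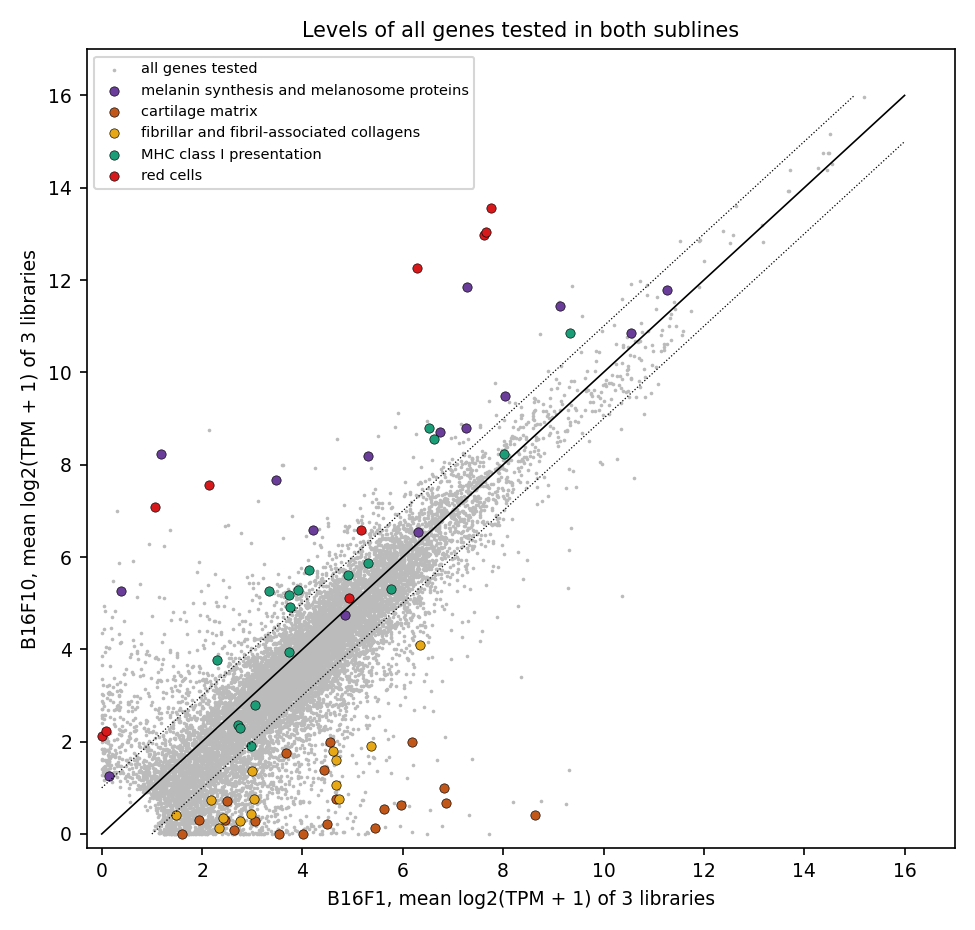
Mean log2(TPM + 1) of the 3 B16F10 libraries (vertical axis) against the mean of the 3 B16F1 libraries (horizontal axis) for the 13478 genes tested, with 5 gene groups coloured. The solid line marks equal levels and the dotted lines a log2 difference of 1. Most melanin and red cell genes lie above the lines (11 of 15 and 9 of 10 called higher), and the tested cartilage matrix and fibrillar collagen genes below.

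Genes of pigment and cartilage were among those with the largest differences. By fold change, the rise that ranked first was that of Slc24a5, the melanosomal cation exchanger, and the falls included Col2a1, the main collagen of cartilage. Slc24a5 (chr2:125068124-125088677, mm10) stood at 1.84, 1.37 and 0.727 TPM in B16F1 and 352, 249 and 309 TPM in B16F10 (log2 fold change 7.06, SE 0.36, limma adjusted p = 1.03e-16). The B16F1 level was close to the line means of the non-melanoma tumours, 0.416 to 1.05 TPM. Col2a1 (chr15:97975602-98004695) stood at 319.6, 632 and 308 TPM in B16F1 and 0.823, 0.171 and 0.0985 TPM in B16F10 (log2 fold change -8.22, SE 0.38, adjusted p = 9.51e-18). Here it was the B16F10 level that lay near the other lines, 0.0123 to 0.301 TPM. Neither gene's ranges overlapped between the sublines.

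Beside pigment, haem and haemoglobin genes, the largest rises included those of 5 genes with other roles. Fbln5, a fibulin of elastic fibres, went from 0.233 ± 0.0972 TPM (mean ± SD, n = 3) in B16F1 to 129 ± 27.8 TPM in B16F10, and Syt4, a synaptotagmin of vesicle traffic, from 4.23 ± 3.78 to 432 ± 37.4 TPM. Dkk3, a secreted protein of the Dickkopf family, Mdfi, an inhibitor of MyoD-family factors, and Mgarp, a mitochondrial protein, reached 58.1 ± 12.3, 77.4 ± 7.64 and 60.2 ± 16.2 TPM in B16F10, from 0.271 ± 0.183, 1.01 ± 0.701 and 0.542 ± 0.144 TPM in B16F1. No B16F1 library reached 9 TPM for any of these 5 genes, and none had ranges that overlapped.

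The largest fall was that of Serpina3n, a secreted inhibitor of serine proteases, from 228, 2371 and 423 TPM in B16F1 to 0.423, 0.455 and 0.898 TPM in B16F10 (log2 fold change -8.60, SE 0.49, adjusted p = 1.27e-15). Mgp, which restrains calcification of cartilage and vessels, stood at 144, 1341 and 421 TPM and 0.401, 1.18 and 0.477 TPM. For both genes B16F1 replicate 2 was the highest of its group. Rhox5, an X-linked homeobox gene, fell from 691 ± 306 to 1.66 ± 0.617 TPM and Apod, a lipocalin carrier protein, from 397 ± 314 to 0.626 ± 0.133 TPM. Serpine2, an inhibitor of thrombin and urokinase, and Prkg2, a cGMP-dependent kinase known from the growth plate, fell from 167 ± 63.0 and 116 ± 49.3 TPM to 0.339 ± 0.249 and 0.130 ± 0.0574 TPM. Igfn1 and Tnnt2, which encode muscle proteins, fell from 103 ± 86.7 and 93.1 ± 8.84 TPM to 0.0277 ± 0.0218 and 0.438 ± 0.152 TPM. Fmod, a small proteoglycan that binds collagen fibrils, was present at 26.7, 306 and 82.5 TPM in B16F1 and listed at 0 in all 3 B16F10 libraries.

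Most melanin genes were higher in B16F10. The list of melanin synthesis and melanosome proteins had 15 members, all tested, 2 of them through B16F10 alone. Those 2 could pass only where B16F10 was high. Of the 15, 11 rose and 0 fell. That is 73.3% higher against 5.79% of all genes, in a list chosen with earlier results of these data known. Its median log2 fold change was 1.95, against -0.31 over all genes. Summed over the list, B16F1 held 9687, 2501 and 6819 TPM and B16F10 16469.5, 11629 and 16073 TPM, in replicates 1 to 3 (exact permutation test over 3 against 3 libraries, two-sided p = 0.1, the smallest this design allows). Every B16F10 library lay above every B16F1 library, and B16F1 replicate 2 was the lowest. Calls numbered 9 without B16F1 replicate 2, B16F10 replicate 1 or B16F10 replicate 3, and 7 without the filter on low genes. All 15 genes had a higher mean in both sublines than in each of the 8 other lines.

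Promoters of the genes that carry this result are shown because the letters CATGTG, a form of the E-box that Mitf-type factors bind, stand close to several of their starts. The sequences are RefSeq promoter windows on GRCm38.p6, from 250 bases before to 50 bases after the gene start, 5′ to 3′ on the gene's strand. Capitals mark CATGTG, or its reverse complement where it lies on the other strand. They are those of Tyr (chr7:87493463-87493762, minus strand), Tyrp1 (chr4:80833963-80834262, plus strand), Slc24a5 (chr2:125067877-125068176, plus strand), Oca2 (chr7:56239509-56239808, plus strand) and, for contrast, Dct (chr14:118052197-118052496, minus strand).
Tyr: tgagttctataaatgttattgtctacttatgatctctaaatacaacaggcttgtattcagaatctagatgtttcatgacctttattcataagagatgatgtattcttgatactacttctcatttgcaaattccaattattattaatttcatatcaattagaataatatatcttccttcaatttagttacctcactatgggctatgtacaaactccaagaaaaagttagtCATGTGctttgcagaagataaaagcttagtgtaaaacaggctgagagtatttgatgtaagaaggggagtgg
Tyrp1: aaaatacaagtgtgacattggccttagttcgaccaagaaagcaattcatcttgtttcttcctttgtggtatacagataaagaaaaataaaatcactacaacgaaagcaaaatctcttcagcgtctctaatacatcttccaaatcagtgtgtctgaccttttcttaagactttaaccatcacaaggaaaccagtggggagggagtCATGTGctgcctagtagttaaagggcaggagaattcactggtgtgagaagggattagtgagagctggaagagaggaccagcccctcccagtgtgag
Slc24a5: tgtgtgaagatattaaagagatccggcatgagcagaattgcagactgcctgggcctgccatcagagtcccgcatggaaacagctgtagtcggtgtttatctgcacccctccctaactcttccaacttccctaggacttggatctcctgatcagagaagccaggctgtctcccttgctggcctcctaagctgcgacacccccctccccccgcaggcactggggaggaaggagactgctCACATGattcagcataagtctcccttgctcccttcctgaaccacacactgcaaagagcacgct
Oca2: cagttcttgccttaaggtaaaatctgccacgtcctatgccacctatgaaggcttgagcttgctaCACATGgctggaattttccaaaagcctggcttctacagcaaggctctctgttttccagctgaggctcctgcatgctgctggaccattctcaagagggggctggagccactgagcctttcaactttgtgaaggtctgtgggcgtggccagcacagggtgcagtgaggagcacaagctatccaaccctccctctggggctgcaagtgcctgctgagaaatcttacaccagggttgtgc
Dct: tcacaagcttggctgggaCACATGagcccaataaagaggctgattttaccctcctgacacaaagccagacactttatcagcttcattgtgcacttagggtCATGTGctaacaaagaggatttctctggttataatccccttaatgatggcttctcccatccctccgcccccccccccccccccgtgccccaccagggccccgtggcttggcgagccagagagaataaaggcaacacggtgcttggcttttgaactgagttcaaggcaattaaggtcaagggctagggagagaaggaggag
The match began 21 bases before the RefSeq start in Tyr, 46 in Tyrp1, 13 in Slc24a5 and 186 in Oca2. Dct held 2 matches, 232 and 150 bases before its RefSeq start. Gene coordinates in the other paragraphs are from GENCODE, whose starts can differ. The GENCODE start of Tyrp1 lies before this match. RefSeq windows were found for 11 of the 15 genes of the list, with 14 windows in all. On either strand, 10 of these 14 windows (71.4%) and 9 of the 11 genes held the letters, against 4650 of 32851 windows in the whole table (14.2%). In the list of melanosome biogenesis and transport, 3 of 20 matched genes held them. Dct and Cited1 held the letters and were not called, while Slc24a4 lacked them and was called. A match of letters is a description and says nothing of binding in these tumours.

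Among the enzymes, Tyr (chr7:87424771-87493512) stood at 30.4, 3.83 and 7.99 TPM in B16F1 and 242, 176 and 194 TPM in B16F10 (log2 fold change 4.19, SE 0.44, limma adjusted p = 2.79e-09). Tyrp1 (chr4:80834123-80851719) stood at 243, 86.5 and 174 TPM and 3985, 3004 and 4261 TPM (log2 fold change 4.58, SE 0.48, adjusted p = 1.98e-09). All B16F10 libraries were above all B16F1 libraries for both enzymes, by 14.5 and 22.4 times in mean TPM. The ratio for Tyr was 34.5 without B16F1 replicate 1. Dct (chr14:118012790-118052244), the remaining enzyme, stood at 4505, 967 and 3476 TPM and 4672, 2923 and 3228 TPM, with ranges that overlapped and a log2 fold change of 0.51 (SE 0.62, adjusted p = 0.595). Its lowest library was B16F1 replicate 2.

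The melanosomal transporters differed to unequal degrees. Oca2 (chr7:56239760-56536518), a chloride channel that controls melanosome pH, stood at 0.513, 0.0614 and 0.360 TPM in B16F1 and 40.8, 29.8 and 43.8 TPM in B16F10 (log2 fold change 4.90, SE 0.37, adjusted p = 1.15e-12). With Slc24a5, it was close to absent in B16F1 and well expressed in B16F10. Slc45a2, a further transporter that affects melanosome pH, was present in both, at 201, 45.9 and 129 TPM and 470.0, 337 and 449 TPM (log2 fold change 1.95, SE 0.44, adjusted p = 6.70e-04). Slc24a4, an exchanger related to Slc24a5, was low, with 0.0357, 0.220 and 0.0768 TPM and 1.17, 1.05 and 2.07 TPM, and passed the test (log2 fold change 1.11, adjusted p = 9.76e-04). Without B16F10 replicate 3 its log2 fold change was 0.93, which is under the threshold.

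Of the structural and surface proteins, Pmel stood at 1244, 228 and 622 TPM in B16F1 and 2994, 2101 and 3406 TPM in B16F10 (log2 fold change 2.31, SE 0.55, adjusted p = 0.00124). Tspan10, a tetraspanin of pigment cells, and Mc1r, the receptor for melanocyte-stimulating hormone, rose from 49.0 ± 34.9 and 19.5 ± 10.5 TPM to 292 ± 48.5 and 95.1 ± 12.9 TPM (mean ± SD, n = 3). Mlana, the melanoma antigen Melan-A, stood at 443, 90.5 and 447 TPM and 811, 594 and 766 TPM (log2 fold change 1.45, adjusted p = 0.0233), and the cation channel gene Trpm1 at 464, 51.0 and 150.01 TPM and 496, 346 and 504 TPM (log2 fold change 1.52, adjusted p = 0.0192). For Trpm1 the ranges overlapped, with B16F1 replicate 1 as high as B16F10. Both calls rested on B16F1 replicate 2. Without it the log2 fold change fell under the threshold of 1, at 0.69 for Mlana (adjusted p = 0.0497) and 0.74 for Trpm1 (adjusted p = 0.0363). Leaving out B16F10 replicate 1 also ended both calls, at 1.36 and 1.44, as did leaving out B16F10 replicate 3 for Mlana, at 1.40. Gpnmb, Gpr143 and Cited1, a glycoprotein, a receptor and a transcriptional cofactor of pigment cells, did not pass the test, with log2 fold changes of 0.31, -0.11 and 0.25. B16F1 replicate 1 was the highest B16F1 library for 13 of the 15 genes and B16F1 replicate 2 the lowest for 13.

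**Figure D2:**
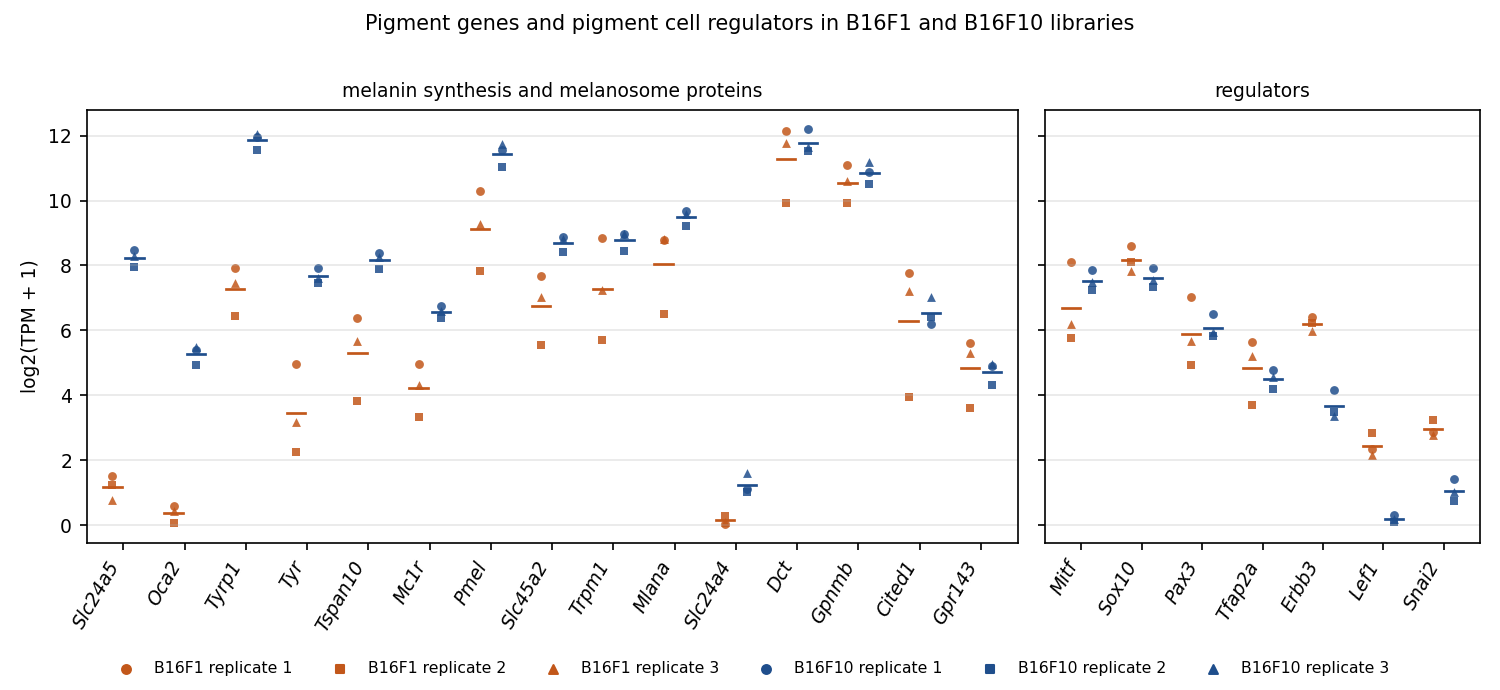
log2(TPM + 1) of the 15 melanin and melanosome genes (left) and of 7 pigment cell regulators (right) in each of the 6 libraries. Points are libraries, with a marker for each replicate number, and bars are means of 3 libraries. Slc24a5, Oca2, Tyrp1 and Tyr are separated most, and Dct, Mitf, Sox10 and Pax3 overlap between the sublines.

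Melanosome biogenesis and transport differed less. All 22 members were tested, 1 of them through B16F10 alone, which could pass only where B16F10 was high. Of the 22, 6 rose and 0 fell (27.3% against 5.79% of all genes), with a median log2 fold change of 0.16. Rab38, a small GTPase that carries enzymes to the melanosome, stood at 36.0, 11.9 and 13.4 TPM in B16F1 and 262, 205 and 269 TPM in B16F10 (log2 fold change 3.68, SE 0.39, adjusted p = 3.07e-09). The copper pump Atp7a, which supplies tyrosinase with its metal, stood at 7.36, 5.68 and 1.81 TPM and 39.7, 22.6 and 28.9 TPM (log2 fold change 2.51, adjusted p = 7.26e-06), and the ranges of both genes were apart. Mcoln3, a lysosomal cation channel, rose from 0.684 ± 0.502 to 14.7 ± 2.01 TPM, and Slc7a11, the cystine transporter needed for red-yellow pigment, from 0.115 ± 0.0497 to 2.88 ± 0.848 TPM. Rab27a, which tethers melanosomes to the actin motor, rose from 58.6 ± 54.8 to 154 ± 32.3 TPM, while its partners Mlph and Myo5a had log2 fold changes of 0.04 and 0.15 and were not called. Lyst, a regulator of lysosome size, was the sixth, at a log2 fold change of 1.16 (adjusted p = 0.0218), and lost its call without any 1 of B16F1 replicate 2 (0.98), B16F1 replicate 3 (0.94), B16F10 replicate 1 (0.96) or B16F10 replicate 3 (1.14). None of the 5 Hps genes or the 4 Bloc1s genes, which encode shared sorting complexes, was called.

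Regulators of pigment cells were called lower about as often as genes in general. Of 16 regulators 13 were tested, 2 of them through B16F1 libraries alone, and 0 rose and 3 fell (23.1%, against 20.3% of all genes). Mitf stood at 275, 53.7 and 73.1 TPM in B16F1 and 231, 151 and 177 TPM in B16F10, Sox10 at 391, 272 and 227 TPM and 242, 161 and 186 TPM, and Pax3 at 131, 29.6 and 49.99 TPM and 89.8, 55.4 and 60.6 TPM. Their log2 fold changes were 0.83 (SE 0.44), -0.58 (SE 0.40) and 0.21 (SE 0.42), with limma adjusted p of 0.172, 0.308 and 0.767, and all 3 genes had ranges that overlapped. Those which fell were Erbb3, a neuregulin receptor of Schwann cells and melanocytes, Lef1, a Wnt effector, and Snai2, a crest transcription factor. Erbb3 stood at 84.1, 74.5 and 61.9 TPM and 17.1, 10.2 and 9.25 TPM (log2 fold change -2.53, SE 0.36, adjusted p = 1.02e-06). Lef1 fell from 4.58 ± 1.46 to 0.156 ± 0.0967 TPM and Snai2 from 6.92 ± 1.41 to 1.13 ± 0.496 TPM, with no overlap for any of these 3 genes. Without B16F1 replicate 1, the highest library for this gene, the log2 fold change of Mitf was 1.53 (adjusted p = 0.00204) and called, as it was with library weights (1.14). The log2 fold change of Kit, a growth factor receptor of melanocytes, was called only with a pseudocount of 0.1 (1.42) or with no fold threshold. Ednrb, the endothelin receptor of crest cells, reached 1 TPM in too few libraries to be tested, at 1.70, 1.27 and 0.832 TPM and 0.368, 0.201 and 0.709 TPM.

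Several crest and glial genes were lower in B16F10, while others were not called. Of 34 crest and glial genes, 13 were tested, 2 of them through B16F1 alone, and 1 rose and 7 fell (53.8% against 20.3% of all genes). Those 2 could pass only where B16F1 was high. The list was summed at 1328, 1775 and 1316 TPM in B16F1 and 472, 320.4 and 352 TPM in B16F10, with no overlap, and Mbp and S100a4 made up most of the B16F1 sums. The median log2 fold change of the 13 tested members was -2.73, against -0.31 over all genes tested. Without the filter, the median of the 27 members above 0 TPM was -0.33. That set takes in members under the filter, whose changes log2(TPM + 1) understates, so it is not set against -0.31. Mbp, a myelin protein gene that also has transcripts outside myelin, fell from 666 ± 160.0 to 102 ± 37.1 TPM (mean ± SD, n = 3). Both sublines were above every other line's mean for Mbp, which reached 19.6 TPM at most. The adhesion molecules Ncam1 and L1cam fell from 21.0 ± 2.35 and 18.5 ± 19.0 TPM to 2.24 ± 0.507 and 0.589 ± 0.112 TPM, and Nes, the intermediate filament of progenitors, from 42.6 ± 14.0 to 4.77 ± 1.22 TPM. S100a4, a calcium-binding protein also found in fibroblasts and leukocytes, fell from 363 ± 195 to 32.0 ± 13.9 TPM. S100b and Cdh19, both typical of Schwann cells and melanocytes, were not called, with log2 fold changes of -0.87 and -0.33. The gene that rose was Ets1, a transcription factor, at 62.1, 38.4 and 30.6 TPM and 128, 82.1 and 93.1 TPM (log2 fold change 1.23, adjusted p = 0.0111). Its call was lost without B16F1 replicate 3 (1.01), B16F10 replicate 1 (1.05) or B16F10 replicate 3 (1.27). Sox9, the crest and cartilage factor, was not tested and stood at 0.0911, 0.0789 and 0.0223 TPM in B16F1 and 1.23, 0.761 and 1.86 TPM in B16F10.

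Of 20 genes known from undifferentiated, mesenchymal-like melanoma cells, 14 were tested, 4 through B16F1 alone, and 1 rose and 7 fell. Those 4 could pass only where B16F1 was high, so that count is not used as support. Summed over all 20, B16F1 held 309, 531 and 358 TPM and B16F10 132, 113 and 184 TPM, with no overlap. Beside Serpine2, the falls included Aqp1, a water channel, from 13.2 ± 2.91 to 0.651 ± 0.223 TPM, and Pdgfrb, a growth factor receptor of mesenchyme, from 8.55 ± 4.42 to 0.798 ± 0.145 TPM. Axl, a receptor kinase, stood at 30.6, 98.3 and 33.0 TPM and 10.4, 13.0 and 37.7 TPM (log2 fold change -1.37, adjusted p = 0.0152), with B16F10 replicate 3 above 2 of the B16F1 libraries. Its call was lost without B16F1 replicate 2 (-0.84), B16F10 replicate 1 (-1.03) or B16F10 replicate 2 (-1.18), and under median-ratio scaling (-1.11). Ccn1, a matricellular target of the YAP pathway, rose at a log2 fold change of 1.41, while its relative Ccn2 fell at -2.03. In both sublines most of these genes were low next to the non-melanoma tumours: 10 of the 14 were called lower in B16F1 than in the 8 other lines (13.8% of all genes), and 12 in B16F10 (24.1% of all genes).

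Extracellular matrix genes were mostly lower in B16F10. Of 18 fibrillar and fibril-associated collagen genes, 14 were tested, 6 of them through B16F1 alone, and each of those tested fell, against 20.3% of all genes. Because those 6 could pass only where B16F1 was high, the sum over all 18 is the fairer description: 234, 441 and 191 TPM in B16F1 and 37.4, 19.7 and 34.8 TPM in B16F10, 9.42 times lower on average (exact permutation p = 0.1, two-sided, the smallest possible). Col3a1, a collagen of loose connective tissue, stood at 25.4, 104 and 24.5 TPM and 3.83, 0.983 and 4.50 TPM (log2 fold change -3.46, SE 0.46, adjusted p = 2.06e-07). Col1a1, the main collagen of bone and skin, stood at 23.9, 39.8 and 15.03 TPM and 3.21, 1.01 and 2.37 TPM (log2 fold change -3.05, SE 0.40, adjusted p = 1.98e-07), with no overlap for either. Col6a1 and Col5a1, collagens that lie around and within such fibrils, fell from 33.9 ± 32.8 and 26.8 ± 15.3 TPM to 0.719 ± 0.397 and 1.09 ± 0.243 TPM. These levels were low in both sublines: 11 of the 14 genes were called lower in B16F1 than in the 8 other lines (13.8% of all genes), and 14 of 14 in B16F10 (24.1% of all genes). Fibroblast and pericyte markers (9 of 17 tested, 4 through B16F1 alone) were also lower by their sum. Of these 9, 8 fell (88.9%, against 20.3% of all genes) and 1 rose, Pdpn (1.83). The 4 could pass only where B16F1 was high, so that share is not used as support. The list summed to 76.9, 85.3 and 51.7 TPM in B16F1 and 28.3, 27.0 and 38.6 TPM in B16F10. Pdgfra, the defining marker, was near 0 in both, at 0.520, 1.08 and 0.234 TPM and 0.242, 0.110 and 0.194 TPM. The part of fibroblasts in the matrix results was not tested.

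Of 22 basement membrane genes, 16 were tested (2 through B16F1 and 1 through B16F10 alone), and 1 rose and 11 fell (68.8%, against 20.3% of all genes). Members tested through 1 subline alone could pass only where that subline was high. Summed over all 22, B16F1 held 277, 341 and 245 TPM and B16F10 150, 79.8 and 99.2 TPM, with no overlap. Col4a1, a chain of the common collagen network, stood at 32.8, 43.5 and 26.9 TPM and 19.3, 7.52 and 8.47 TPM (log2 fold change -1.56, SE 0.39, adjusted p = 0.00186). Perlecan (Hspg2) and agrin (Agrn), heparan sulphate proteoglycans, fell from 23.2 ± 7.05 and 42.5 ± 11.3 TPM to 5.39 ± 2.57 and 13.4 ± 4.51 TPM. The gene that rose was Col4a4, a chain found in the kidney glomerulus, at 0.154, 0.127 and 0.112 TPM and 4.48, 1.98 and 2.45 TPM (log2 fold change 1.76, adjusted p = 7.47e-06). Lama4 and Lamc1, laminin chains, had log2 fold changes of 0.06 and -0.57 and were not called.

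Of 39 matrix glycoproteins and matricellular genes, 32 were tested, 12 of them through B16F1 and 3 through B16F10 alone, and 3 rose and 20 fell. Those 12 could pass only where B16F1 was high, so that count is not used as support. Summed over all 39, B16F1 held 2113, 7757 and 3744 TPM and B16F10 888, 759 and 868 TPM, with no overlap. Fibronectin (Fn1) stood at 612, 2809 and 1344 TPM in B16F1 and 35.7, 30.2 and 38.2 TPM in B16F10, a mean 45.8 times lower, or 28.2 times without B16F1 replicate 2 (log2 fold change -5.22, SE 0.44, adjusted p = 1.62e-11). The B16F1 mean lay within the range of the other lines, 102 to 2098 TPM, and the B16F10 mean below all of them. Osteopontin (Spp1), a phosphoprotein of bone and macrophages, stood at 215, 1503 and 778 TPM and 45.3, 98.0 and 77.0 TPM (log2 fold change -3.16, SE 0.49, adjusted p = 3.31e-06). Biglycan (Bgn) and periostin (Postn) fell from 52.3 ± 14.1 and 24.8 ± 10.8 TPM to 3.31 ± 1.43 and 1.49 ± 0.733 TPM, and Igfbp3 and Igfbp5, carriers of insulin-like growth factors, from 18.6 ± 8.74 and 10.5 ± 7.65 TPM to 1.22 ± 0.455 and 0.0770 ± 0.0612 TPM. The genes that rose were Fbln5, Igfbp4 (from 8.48 ± 1.78 to 57.3 ± 11.2 TPM) and Npnt, a ligand of integrins (from 0.271 ± 0.177 to 2.83 ± 1.29 TPM). Members of the fibulin family thus differed in direction: Fbln2 fell at a log2 fold change of -1.65, and Fbln1 was not called, at 0.18. These directions were the same under median-ratio scaling.

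The enzymes that crosslink and cut matrix were more mixed. Of 42 members, 30 were tested (2 through B16F1 and 1 through B16F10 alone). Of these, 4 rose (13.3%) and 10 fell (33.3%), against 5.79% and 20.3% of all genes. Loxl2, a lysyl oxidase that crosslinks collagen, stood at 1.31, 1.40 and 0.723 TPM in B16F1 and 14.6, 10.6 and 14.8 TPM in B16F10 (log2 fold change 2.74, SE 0.35, adjusted p = 1.43e-07). Mmp14, a membrane-bound collagenase that activates Mmp2, stood at 12.1, 17.2 and 15.1 TPM and 72.2, 41.1 and 50.9 TPM (log2 fold change 1.79, SE 0.36, adjusted p = 1.84e-04). Both were higher in all B16F10 libraries, and the other rises were those of Mmp8 (1.53) and the macrophage elastase Mmp12 (1.63). Mmp2 itself fell from 16.5 ± 2.89 to 1.93 ± 0.844 TPM, the oxidases Loxl1, Loxl3 and Lox (the last from the list of undifferentiated melanoma genes) fell at log2 fold changes of -1.78, -1.50 and -1.62, and Bmp1, which trims procollagens, fell at -2.67. Of the procollagen hydroxylases, P4ha2 fell (-1.16), a call lost without B16F10 replicate 2 (-0.999) or B16F10 replicate 3 (-1.20) and under median-ratio scaling (-0.90). Plod1, Plod2 and P4ha1 and the collagen chaperone Serpinh1 were not called, with log2 fold changes from 0.12 to 0.69. Under median-ratio scaling 5 of the 30 rose and 5 fell.

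Cartilage genes were present in B16F1 and close to absent in B16F10. Of 34 cartilage matrix genes, 20 were tested, 14 of them through B16F1 alone, and each of those tested fell. The filter could pass these 14 only where B16F1 was high, so that count is not used as support. Summed over all members, B16F1 held 722, 2004 and 846 TPM and B16F10 24.8, 14.7 and 12.9 TPM, 68.1 times lower on average, or 44.8 times without B16F1 replicate 2 (exact permutation p = 0.1, two-sided, the smallest possible). The lowest B16F1 sum was far above the highest B16F10 sum. Within B16F1, replicate 2 was the highest for 15 of the 20 genes.

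Beside Col2a1, the collagens that join it in cartilage fibrils were lower. Col9a1 stood at 49.3, 358 and 84.9 TPM in B16F1 and 0.831, 0.813 and 0.194 TPM in B16F10 (log2 fold change -6.19, SE 0.47, adjusted p = 1.30e-12), Col9a3 at 126, 91.7 and 121 TPM and 1.89, 0.872 and 0.474 TPM (log2 fold change -5.82, SE 0.38, adjusted p = 3.06e-14). Col9a2, Col11a1 and Col11a2 fell from 53.2 ± 29.0, 64.5 ± 72.4 and 84.4 ± 84.6 TPM to 0.465 ± 0.209, 0.101 ± 0.0689 and 0.576 ± 0.400 TPM. Chondromodulin (Cnmd), a vessel inhibitor of cartilage, was at 2.18, 68.7 and 17.7 TPM in B16F1, and Snorc, a chondrocyte transmembrane proteoglycan, at 6.42, 17.3 and 10.2 TPM; both were listed at 0 in all 3 B16F10 libraries. Matn4, a matrilin, and Scrg1, a secreted protein of chondrocytes, fell from 24.1 ± 13.4 and 72.5 ± 12.7 TPM to 0.161 ± 0.0891 and 3.02 ± 0.771 TPM. Hapln1, which links proteoglycans to hyaluronan, was at 6.10, 102 and 16.8 TPM and 5.96, 2.45 and 1.64 TPM, with B16F1 replicate 1 next to B16F10 replicate 1. Its log2 fold change was -2.56, and under median-ratio scaling -2.37, where it was not called (adjusted p = 0.115). Chst11, which sulphates chondroitin, fell from 27.8 ± 18.4 to 0.706 ± 0.291 TPM.

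The cartilage programme was partial. Aggrecan (Acan), the main proteoglycan of cartilage and one of the defining markers, stood below 0.17 TPM in all 6 libraries, and Matn1, a further marker, at 0.452, 4.90 and 0.216 TPM in B16F1 and 0, 0 and 0.0305 TPM in B16F10. Comp, also a marker, was at 1.79, 1.78 and 2.52 TPM in B16F1. The SOX factors that drive cartilage genes in chondrocytes did not follow the collagens: Sox9 was at most 0.0911 TPM in B16F1, Sox5 stood at 9.53, 1.68 and 5.67 TPM and 5.22, 2.699 and 2.53 TPM, and Sox6 at 22.3, 17.2 and 11.2 TPM and 24.4, 15.8 and 20.9 TPM. Sox5 and Sox6 had log2 fold changes of -0.40 (SE 0.40, adjusted p = 0.504) and 0.28 (SE 0.37, adjusted p = 0.627), with ranges that overlapped. Of 31 cartilage and bone regulators, 10 were tested, 2 through B16F1 alone. Those 2 could pass only where B16F1 was high. Summed over all 31, B16F1 held 217, 453 and 285 TPM and B16F10 71.2, 49.2 and 62.6 TPM, with no overlap. Most of each B16F1 sum was 1 gene, Wwp2, whose values follow. Of the 10 tested, 0 rose and 5 fell (50%, against 20.3% of all genes). They were Fgfr3, a growth factor receptor of the growth plate (7.02, 16.4 and 5.56 TPM and 0.132, 0.145 and 0.0949 TPM), Wwp2, a ubiquitin ligase whose gene hosts a cartilage microRNA (145, 369.6 and 235 TPM and 27.9, 21.7 and 26.4 TPM), Runx1, Runx2 and Dlx6. The call of Dlx6, at -1.09, was lost without B16F1 replicate 1 (-0.78), B16F1 replicate 3 (-0.93), B16F10 replicate 2 (-1.03) or B16F10 replicate 3 (-0.90), and under median-ratio scaling (-0.92).

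**Figure D3:**
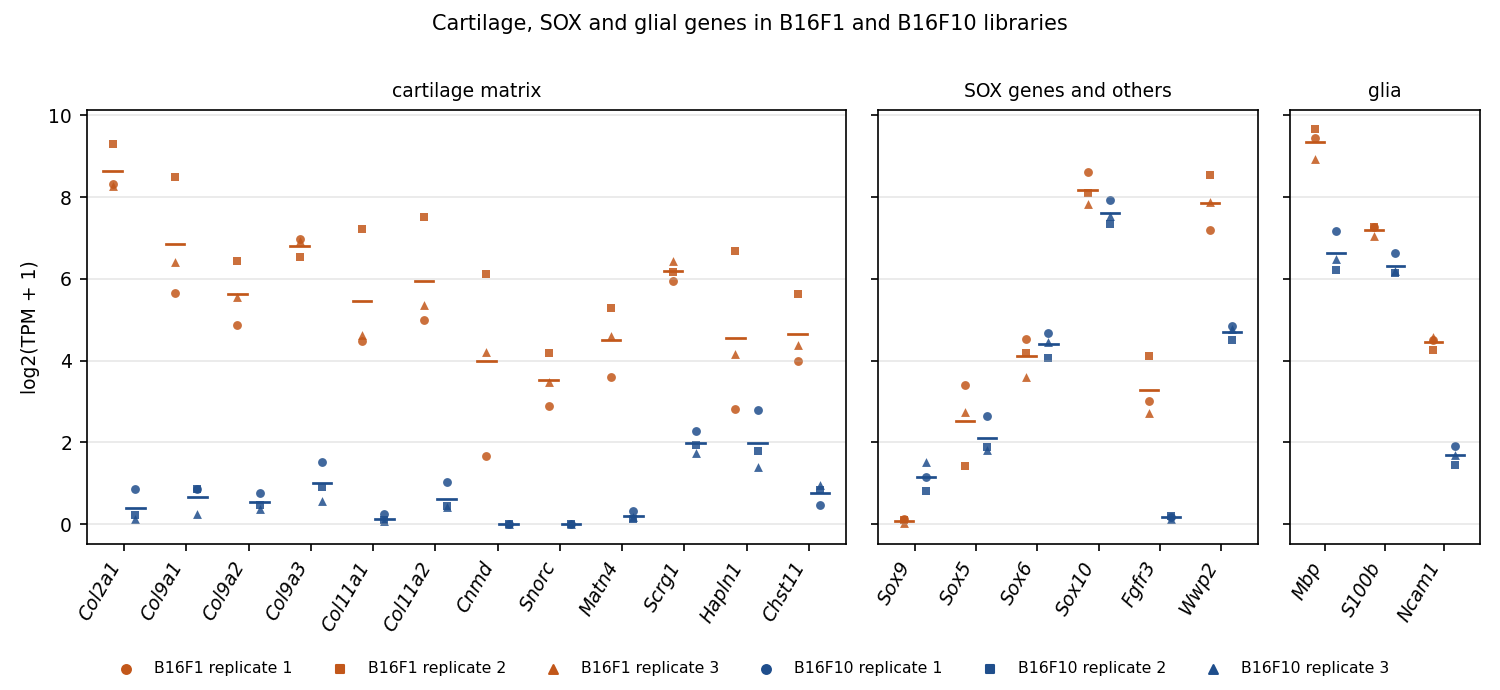
log2(TPM + 1) of cartilage matrix genes (left), SOX genes with Fgfr3 and Wwp2 (middle) and glial genes (right) in each of the 6 libraries; bars are means of 3 libraries. Most cartilage genes of B16F10 lie near 0, while Sox5, Sox6 and Sox10 overlap between the sublines.

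Immune genes gave no single direction. The pan-leukocyte list summed to 141, 406 and 349.7 TPM in B16F1 and 507, 483 and 689 TPM in B16F10, but most of the B16F10 sum was 1 gene, Arhgdib, a regulator of small GTPases found in leukocytes and some tumours, at 22.6, 63.7 and 61.3 TPM and 420.3, 341 and 426 TPM (log2 fold change 3.11, SE 0.40, adjusted p = 1.52e-07). Without Arhgdib the sums were 118, 342 and 288 TPM in B16F1 and 86.9, 142 and 262 TPM in B16F10 (exact permutation p = 0.3, two-sided), and the ranges overlapped. None of the other 9 genes was called, while 3 fell without B16F1 replicate 1 and 3 without B16F10 replicate 3. B16F10 replicate 3 was the highest of its group for all 10 genes, and B16F1 replicate 2 the highest of its group for 9.

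MHC class I genes, which present peptides from within the cell to T cells, were higher in B16F10. Of 18 members, all tested, 9 rose and 0 fell (50% against 5.79% of all genes), and their sum was 1004, 1505 and 1579 TPM in B16F1 and 2575, 2800.0 and 5414 TPM in B16F10, with no overlap. The class I heavy chain H2-K1 (chr17:33996017-34000347) stood at 48.5, 149.6 and 128 TPM and 258, 302 and 667 TPM (log2 fold change 1.92, SE 0.44, limma adjusted p = 7.95e-04), and H2-D1 at 50.6, 136 and 108 TPM and 294, 360.1 and 818 TPM (log2 fold change 2.28, SE 0.43, adjusted p = 8.55e-05). B2m, the shared light chain, stood at 488, 672 and 828 TPM and 1443, 1596 and 2805 TPM (log2 fold change 1.52, SE 0.50, adjusted p = 0.0179). All B16F10 libraries were above all B16F1 libraries for these 3 genes, and B16F10 replicate 3 was the highest for each. Heavy chain genes are near copies, so the split of reads among them is uncertain. For H2-K1 and H2-D1 the means of both sublines lay below those of every other line, the lowest of which were 534 and 697 TPM. Psmb8, an interferon-inducible proteasome subunit, stood at 10.8, 20.2 and 20.7 TPM and 23.9, 40.7 and 138 TPM (log2 fold change 1.58, adjusted p = 0.00564).

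Part of this result rested on B16F10 replicate 3. Without B16F10 replicate 3, 3 of the 18 rose and 1 fell, with a median log2 fold change of 0.40 in place of 0.94. In that fit B2m was at 1.23 (adjusted p = 0.204) and Psmb8 at 0.88. Without B16F1 replicate 1, 4 rose, with B2m at 1.32 and Psmb8 at 1.29 no longer called, and without B16F10 replicate 2 B2m was not called either (1.63). Under median-ratio scaling 5 rose, and without the filter on low genes 1. H2-K1 and H2-D1 were called without any 1 library. Interferon response genes moved in the same library. Of 36 genes 35 were tested, and 10 rose (28.6%) and 2 fell (5.71%), against 5.79% and 20.3% of all genes. When B16F10 replicate 3 was left out, 4 rose and 3 fell. Oas1a, an antiviral synthetase, stood at 5.75, 5.74 and 5.40 TPM and 18.5, 20.8 and 47.2 TPM, and Ifih1, a sensor of viral RNA, at 0.938, 1.49 and 0.885 TPM and 4.29, 4.49 and 8.45 TPM, with log2 fold changes of 2.04 and 1.64 (adjusted p = 7.97e-05 and 2.07e-04). All B16F10 libraries were above all B16F1 libraries for Oas1a and Ifih1. MHC class II genes, made by specialised presenting cells, had 9 of 11 members tested, 0 that rose and 1 that fell (11.1%, against 20.3% of all genes). The gene that fell was H2-Eb1 (-1.29, limma adjusted p = 0.0338), whose call was lost without B16F1 replicate 2 (-0.83), B16F10 replicate 1 (-0.82) or B16F10 replicate 2 (-1.03). Without B16F10 replicate 3, 6 of the 9 fell, and without B16F1 replicate 1 3 did.

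Macrophage genes were lower in B16F10 by TPM, but less clearly after rescaling. Of 20 members 19 were tested, and 1 rose and 12 fell (63.2% against 20.3% of all genes). Adgre1, which encodes F4/80, stood at 8.39, 31.9 and 18.4 TPM in B16F1 and 4.68, 4.67 and 14.9 TPM in B16F10 (log2 fold change -1.18, adjusted p = 0.0383). C1qa, a complement chain made by macrophages, stood at 82.1, 273 and 316 TPM and 43.6, 36.1 and 135 TPM (log2 fold change -1.67, adjusted p = 0.00519), and Folr2, a folate receptor of resident macrophages, at 10.4, 47.3 and 24.1 TPM and 2.72, 2.02 and 6.13 TPM (log2 fold change -2.48, adjusted p = 2.76e-05). B16F10 replicate 3 overlapped with B16F1 replicate 1 for Adgre1 and C1qa, and for Folr2 the ranges were apart. Adgre1 was not called without B16F1 replicate 2 (-0.76), B16F10 replicate 1 (-0.94) or B16F10 replicate 2 (-0.94), nor C1qa without B16F10 replicate 2 (-1.31). Under median-ratio scaling 1 of the 19 fell, with mitochondrial and haemoglobin genes removed 4 did, and without the filter on low genes 0 did. The list median was -0.999 and -1.14 under these rescalings, in place of -1.24. The count was 4 without B16F10 replicate 1 and 6 without B16F10 replicate 2. Arg1, the arginase of a class of myeloid cells, went the other way, at 5.84, 7.54 and 10.6 TPM and 18.1, 40.8 and 52.4 TPM (log2 fold change 1.99, SE 0.40, adjusted p = 1.44e-04), with no overlap. Cx3cr1, the fractalkine receptor of monocytes and macrophages, fell from 7.18, 28.6 and 13.0 TPM to 0.598, 0.695 and 1.29 TPM (log2 fold change -3.03, SE 0.39, limma adjusted p = 1.58e-07). It was the 1 of 11 monocyte genes called (9.09% lower, against 20.3% of all genes).

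**Figure D4:**
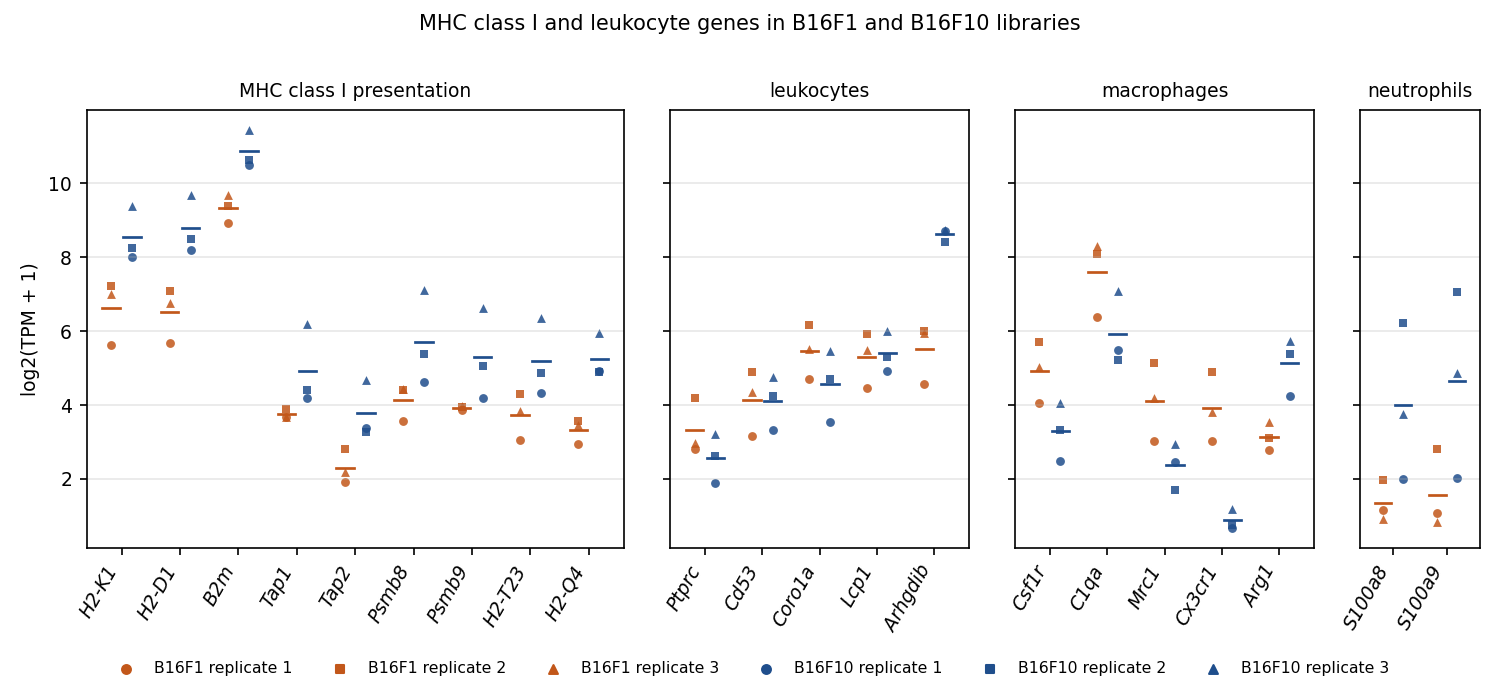
log2(TPM + 1) of the 9 MHC class I genes that rose and of leukocyte, macrophage and neutrophil genes, the examples chosen with their values known, in each of the 6 libraries; bars are means of 3 libraries. MHC class I genes and Arhgdib are higher in B16F10, and Ptprc, Cd53, Coro1a and Lcp1 overlap between the sublines.

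Most other leukocyte genes were low in all 6 libraries. Of 31 T and NK cell genes 18 were tested, and 2 rose (11.1%) and 1 fell (5.56%), against 5.79% and 20.3% of all genes. Gzmb and Prf1, the killing proteins of cytotoxic cells, stood at 0.355, 2.01 and 0.676 TPM and 0.338, 1.5003 and 0.376 TPM in B16F1 and at 1.08, 2.03 and 17.3 TPM and 0.748, 1.72 and 10.3 TPM in B16F10. Without B16F10 replicate 3 their log2 fold changes of 1.36 and 1.18 became 0.40 and 0.39, with neither called. Without B16F1 replicate 1 they were 1.12 and 1.02, and not called either. In the fit without B16F10 replicate 3, 0 of the 18 rose and 6 fell. Ccl5, a chemokine, fell from 40.7, 37.5 and 54.3 TPM to 7.23, 10.3 and 22.7 TPM. Cd3e, a T cell marker, reached 1 TPM in 1 library of each subline. Of the 17 neutrophil and mast cell genes 6 were tested, and S100a8 and S100a9, the calprotectin chains of neutrophils, rose (33.3%, against 5.79% of all genes). S100a9 stood at 1.10, 6.00 and 0.774 TPM in B16F1 and 3.05, 132 and 28.3 TPM in B16F10 (log2 fold change 3.08, SE 0.65, limma adjusted p = 2.91e-04). B16F10 replicate 1 lay within the B16F1 range for S100a9, and under median-ratio scaling the log2 fold changes were 2.83 for S100a8 and 3.26 for S100a9, with adjusted p of 0.0758 and 0.0919, so that neither was called. Of dendritic cell genes 8 of 15 were tested, 1 through B16F1 alone, and 1 fell, Batf3 (-2.08), or 12.5% against 20.3% of all genes. Of B and plasma cell genes 3 of 11 were tested, 1 through B16F10 alone, and 1 fell, Ighm (-1.14), or 33.3% against 20.3% of all genes. The call of Ighm was lost without B16F1 replicate 2 (-0.79), B16F10 replicate 1 (-0.99) or B16F10 replicate 2 (-1.04).

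Secreted immune mediators changed in both directions. Of 37 chemokines and cytokines 26 were tested, 4 through B16F1 and 2 through B16F10 alone. Of these 26, 4 rose (15.4%) and 11 fell (42.3%), against 5.79% and 20.3% of all genes. Without B16F1 replicate 2, 7 rose, and without B16F10 replicate 3, 2 did. Csf1, the growth factor of macrophages, stood at 33.9, 27.3 and 18.8 TPM in B16F1 and 3.62, 3.60 and 5.63 TPM in B16F10 (log2 fold change -2.37, SE 0.38, adjusted p = 5.68e-06), below every other line's mean in both, the lowest of which was 51.2 TPM. Tgfb2, a growth factor that restrains immune cells, fell from 13.8 ± 1.52 to 2.26 ± 0.477 TPM, and Ccl12, a monocyte attractant, from 63.5 ± 57.3 to 10.5 ± 4.75 TPM, though under median-ratio scaling Ccl12 was at -1.94 in place of -2.20 and not called (adjusted p = 0.0647). Cxcl3, which attracts neutrophils, rose from 0.0369, 0 and 0.0448 TPM to 1.22, 14.7 and 4.12 TPM. The abundant Mif and Vegfa were not called, at 0.93 and -0.03. In the complement list 11 of 14 were tested, 1 through B16F1 alone. Of these 11, 1 rose (9.09%) and 4 fell (36.4%), against 5.79% and 20.3% of all genes. Under median-ratio scaling 2 fell. C2 stood at 1.60, 1.24 and 1.96 TPM and 93.1, 72.2 and 126 TPM (log2 fold change 5.21, SE 0.37, adjusted p = 3.10e-13), while C4b, the protein it acts with, stood at 205, 124 and 144 TPM and 10.6, 8.24 and 27.1 TPM (log2 fold change -3.42, SE 0.39, adjusted p = 1.52e-08). Both genes lie in the MHC region of chromosome 17, and both had ranges far apart, in opposite directions.

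Genes of other cell types were called in both directions. Endothelial genes (7 of 15 tested, 2 through B16F1 alone) had 5 that fell (71.4%, against 20.3% of all genes). They included Pecam1 (2.99, 3.61 and 3.14 TPM and 0.308, 0.950 and 1.36 TPM). The 2 genes tested through B16F1 alone could pass only where B16F1 was high, so that share is not used as support. The sums over the list overlapped, at 99.0, 68.9 and 89.4 TPM and 98.2, 69.2 and 94.4 TPM. Much of each sum was Eng, an endoglin gene, at 38.1, 35.6 and 33.2 TPM and 76.9, 53.9 and 78.8 TPM, which was not called (0.93). The call of Pecam1 was lost without B16F10 replicate 1 (-0.98). Skeletal muscle genes were high in 1 library: Acta1, Ckm, Tnnt3, Mylpf and Myh4 summed to 364, 10.9 and 22.2 TPM in B16F1 and 4.47, 8.86 and 7.87 TPM in B16F10. Tnni2, a fast muscle troponin, did not follow them, at 71.2, 98.9 and 45.1 TPM and 0.235, 0.681 and 0.663 TPM. Red cell genes (10 of 13 tested, 2 through B16F10 alone) had 9 that rose (90%, against 5.79% of all genes). Those 2 could pass only where B16F10 was high. Hbb-bs, a beta globin whose reads may be shared with its near copy Hbb-bt, stood at 72.1, 1150.2 and 119.9 TPM and 4807, 28744 and 12570.0 TPM, and Alas2, the erythroid haem enzyme, at 1.52, 16.7 and 0.918 TPM and 68.1, 485 and 203 TPM. Their part in the differences above was not tested. The mean of no other line passed 1.05 TPM for Tyr, Tyrp1, Oca2 or Slc24a5.

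Cell state genes were called in both directions. Of 35 cell cycle genes 32 were tested, and 3 rose (9.38%, against 5.79% of all genes) and 1 fell (3.12%, against 20.3%). Without B16F1 replicate 1, 12 rose, and under median-ratio scaling 7 did. Top2a, a topoisomerase of dividing cells, had a log2 fold change of 0.38 (adjusted p = 0.545). Of 22 hypoxia and glycolysis genes, all tested, 4 rose (18.2%, against 5.79% of all genes) and 3 fell (13.6%, against 20.3%). Under median-ratio scaling 9 rose and 2 fell, and 8 rose without B16F1 replicate 1, with mitochondrial and haemoglobin genes removed, in the fit of all 30 libraries and with library weights. The lactate exporter Slc16a3 stood at 2.61, 5.22 and 6.24 TPM in B16F1 and 109, 88.0 and 109 TPM in B16F10 (log2 fold change 4.23, SE 0.37, adjusted p = 3.62e-11), Adm, a vasodilator peptide, rose from 3.93 ± 1.48 to 48.7 ± 8.17 TPM, and Car9, a carbonic anhydrase induced by low oxygen, from 34.8 ± 24.6 to 242 ± 23.3 TPM. Egln3, an oxygen sensor that is itself a hypoxia target, went the other way, from 54.8, 29.6 and 56.4 TPM to 4.59, 5.29 and 4.66 TPM. Gapdh, Eno1 and Ldha, abundant glycolytic enzymes, were not called (0.96, 1.26 and 0.57). All 21 dissociation and stress genes were tested, 1 through B16F1 alone. Of these 21, 2 rose (9.52%) and 6 fell (28.6%), against 5.79% and 20.3% of all genes. Without B16F1 replicate 1, 4 rose, and without B16F1 replicate 2, 10 fell. Egr1, an immediate early gene, fell from 13.8 ± 2.20 to 3.26 ± 0.800 TPM, and Hsp90aa1, a chaperone, rose from 224 ± 102 to 693 ± 255 TPM. The call of Hsp90aa1 was lost without B16F10 replicate 1 (1.37).

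**Figure D5:**
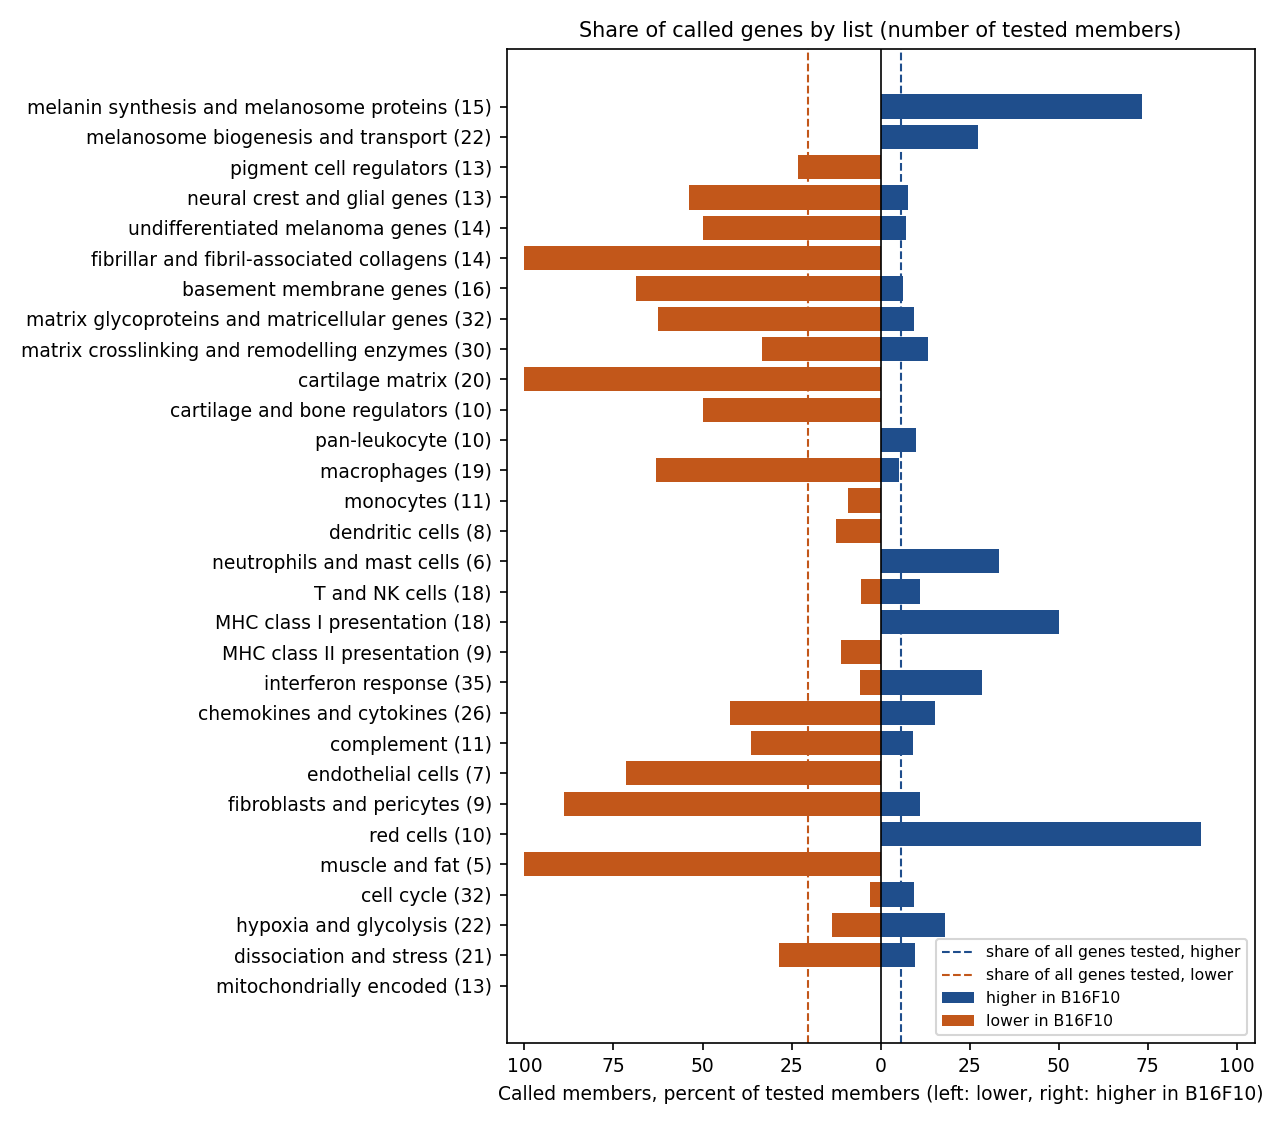
Percentage of tested members called higher (right) or lower (left) in B16F10 for each list with 5 or more tested members, whose number is in brackets. Dashed lines mark the shares over all genes, 5.79% higher and 20.3% lower. Bars of lists with members that passed the filter through B16F1 alone, such as cartilage matrix (14 of 20), could only point left for those members. For members that passed through B16F10 alone, such as 2 of the 15 melanin genes, they could only point right.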

How the data were processed

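Total RNA of tumour digests was sequenced from stranded mRNA libraries, and the authors deposited 1 table of TPM for 30 libraries and 55291 gene symbols, per the file headers. The submitters' processing notes name Trim Galore 0.6.5 (read trimming), STAR 2.7.3a (alignment), StringTie 2.1.2 (TPM) and mm10. Gene annotation and use of strand in counting are not given in the sources used here. TPM sum to a fixed total in each library, so a rise of abundant genes lowers all others, and overlapping or near-identical genes can share reads.

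Genes that reached 1 TPM in 3 or more of the 6 libraries were tested on log2(TPM + 1) by limma 3.58.1 (R 4.3.3; eBayes with a trend), with Benjamini-Hochberg adjustment over 13478 genes; fold changes on this scale understate changes of low genes. A call needed an adjusted p under 0.05 and an absolute log2 fold change of 1 or more. A limma fit of all 30 libraries, added to the design, set each subline against the 8 other lines, which both contrasts share. Sums over lists were compared by exact permutation tests. The members of 32 lists (690 genes, 493 tested) were chosen with earlier results of these data known. Named genes were the 12 largest rises and falls (no predicted genes, pseudogenes or receptor segments), 4 members of each list with the largest change and 3 with the highest level, markers that define a cell type, and any member of the pigment, neural crest, matrix and cartilage lists. Lists carry no test, and some named genes are not reported here. Gene coordinates are those of GENCODE on mm10, and promoters come from RefSeq, so the 2 starts given for a gene can differ. Alternatives were another pseudocount, no filter, median-ratio scaling, removal of mitochondrial and haemoglobin genes, a fit of all libraries, library weights, no fold threshold, a replicate block and leaving out each library. The fit was tested on simulated data. Python 3.11.15 with pandas 2.3.3, numpy 2.4.6, scipy 1.17.1 and matplotlib 3.10.9 was used.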

Additional observations from a re-analysis of the deposited data

How the results depend on the processing

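With no depth and 3 libraries a group, small differences and genes near 1 TPM are the least certain. Of 326 named genes tested, 204 were called and 133 kept their call in every alternative. No called value changed sign. Calls lost numbered 66 without the filter, 31 under median-ratio scaling, 13 with mitochondrial and haemoglobin genes removed, 11 with library weights, 3 in the fit of all 30 libraries and 3 to 15 on leaving out 1 library. Without the filter 30490 genes were tested and 2190 called, 511 higher and 1679 lower, against 3520, 780 and 2740. With mitochondrial and haemoglobin genes removed 967 were higher and 2343 lower (29.2% higher), and with library weights 998 and 2888. Library weights ran from 0.224 for B16F1 replicate 1 to 5.03 for B16F10 replicate 3. A pseudocount of 0.1 moved the median log2 fold change of neural crest genes from -0.83 to -1.20, of matrix genes from -1.42 to -1.77, of cartilage-like genes from -2.66 to -4.06 and of other cell types from -1.34 to -1.76. Library weights moved neural crest genes to -0.60, other cell types to -0.98 and immune genes from -0.32 to 0.11. On leaving out 1 library, called genes ranged from 2604 (without B16F10 replicate 2) to 4224 (without B16F1 replicate 2), higher calls from 598 to 1061 and lower calls from 1891 to 3480. Medians then ranged from 0.37 to 0.98 for pigment (main value 0.73), -0.93 to -0.73 for neural crest, -1.47 to -1.19 for matrix, -3.10 to -2.12 for cartilage-like, -0.61 to -0.05 for immune, -1.44 to -0.74 for other cell types and 0.12 to 0.48 for cell state genes. The values nearest 0 for pigment and cartilage-like genes came without B16F1 replicate 2, and that for other cell types without B16F1 replicate 1, which held the muscle genes. The causes of these shifts and of the lost calls were not tested. Whether replicate numbers pair the sublines was left unsettled. Deviations from group means correlated at 0.40, 0.0639 and 0.0141 for numbers 1 to 3, and at -0.319 to 0.265 for unlike numbers. The pair of number 1 was the highest of all, while B16F1 replicate 2 correlated best with B16F10 replicate 3 (0.265). With a replicate block 3586 genes were called.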

Other observations

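Further genes separated the sublines and stand in none of the lists; they were chosen after their values were seen. Hpse, the heparanase that cuts heparan sulphate, stood at 0.830, 2.48 and 1.09 TPM in B16F1 and 74.2, 56.8 and 96.5 TPM in B16F10 (log2 fold change 4.99, limma adjusted p = 1.87e-12). Hs3st1, which sulphates heparan chains, stood at 0.0691, 0.0294 and 0 TPM and 23.7, 18.01 and 20.6 TPM (4.39), while Gpc3, a cell surface proteoglycan that carries such chains, stood at 35.1, 34.0 and 74.7 TPM and 0.152, 0.0766 and 0.0509 TPM (-5.39). Epha3, an ephrin receptor, was near 0 in B16F1 and at 50.1, 35.8 and 47.1 TPM in B16F10 (5.26), and Kcnj13, a potassium channel, at 16.8, 16.9 and 70.1 TPM (4.56). Slc2a5, a fructose transporter, stood at 0.210, 0.0481 and 0.189 TPM and 30.6, 19.2 and 26.8 TPM (4.51). Cck, which encodes the hormone cholecystokinin, was listed at 0 in 2 B16F1 libraries and stood at 23.6, 16.1 and 53.9 TPM in B16F10. The X-linked gene Xlr stood at 55.4, 22.5 and 40.3 TPM in B16F1 and was listed at 0 in all 3 B16F10 libraries. None of these genes had ranges that overlapped between the sublines.

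The share of genes called differed by chromosome. On chromosome X 139 of 432 genes tested (32.2%) fell and 20 (4.63%) rose, with a median log2 fold change of -0.60, and on chromosome 15 172 of 543 (31.7%) fell and 25 (4.604%) rose, with a median of -0.69. On chromosome 3 80 of 651 genes (12.3%) rose and 84 (12.9%) fell, with a median of 0.02, and on chromosome 12 45 of 477 (9.43%) rose and 49 (10.3%) fell, with a median of 0.11. Over all genes 5.79% rose and 20.3% fell, with a median of -0.31. These 4 chromosomes were chosen after their values were seen, and copy number was not measured.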
